A study of Drosophila melanogaster with 3 samples.

Results

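The nuclear receptors of the ecdysone cascade are 10 Drosophila genes, EcR, usp, Eip75B, Eip78C, Hr3, Hr4, Hr39, Hr38, Hr78 and ftz-f1, out of 13968 protein-coding genes. They were taken as a named list, and each region of Plzf binding was assigned to a gene when its summit lay inside the gene or within 5 kb of it. The regions came from chromatin immunoprecipitation with sequencing (ChIP-seq) of whole prepupae, the stage that opens metamorphosis, with 3 biological replicates in 1 group. The animals were of strain CG6792-GFP, a transgenic line with stable expression of Plzf, the product of CG6792, fused at its C terminus to eGFP. Males and females were pooled, and the age is recorded as unknown. The description names an anti-GFP antibody, and the antibody field names CG6792. The promoter that drives the fusion is not given in the sources used here, and signal from whole animals sums over all tissues. There is no second genotype, treatment or time, so no contrast between conditions was possible and every value below is a description with its spread over replicates.

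Ecdysone, as 20-hydroxyecdysone, binds a heterodimer of the receptors encoded by EcR and usp, which activates a first tier of genes that includes Eip75B. Hr3 and Hr4 follow as the hormone pulse proceeds, and Hr3 in turn activates ftz-f1, whose product makes prepupal tissue competent for the next pulse. The cascade is best known from late larval and prepupal tissue, where one receptor after another is switched on and off, often from several alternative promoters of the same gene.

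The summits of the strongest binding at Eip78C, Eip75B, Hr38 and ftz-f1, and of both Hr4 peaks that were among the 710 strongest of all, are shown, each in an intron. The strongest peaks of EcR and Hr3 also lay in introns but are not shown, so the lines do not cover every leading intron peak. The strongest peaks of usp and Hr78 lay at promoters and that of Hr39 beyond the gene, and their sequences are not shown. Each line gives the reference bases within 50 bp of a summit, dm6 plus strand, read 5′ to 3′ from the RefSeq genome, and capitals mark matches, on either strand, to the short words described further on.
Eip78C intron, chr3L:21253853-21253953: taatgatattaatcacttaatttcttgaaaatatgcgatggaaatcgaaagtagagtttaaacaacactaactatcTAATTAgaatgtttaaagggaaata
Hr4 intron, stronger peak, chrX:1951869-1951969: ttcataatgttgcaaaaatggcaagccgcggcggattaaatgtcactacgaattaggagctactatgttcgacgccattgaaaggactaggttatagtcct
Hr4 intron, second peak, chrX:1947705-1947805: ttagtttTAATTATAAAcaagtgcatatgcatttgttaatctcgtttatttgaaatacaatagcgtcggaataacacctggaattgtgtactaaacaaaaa
Eip75B intron, chr3L:18011863-18011963: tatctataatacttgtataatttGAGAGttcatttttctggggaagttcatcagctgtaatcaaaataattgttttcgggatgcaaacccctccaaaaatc
Hr38 intron, chr2L:20700717-20700817: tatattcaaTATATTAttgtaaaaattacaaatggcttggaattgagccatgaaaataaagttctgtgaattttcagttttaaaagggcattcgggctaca
ftz-f1 intron, chr3L:18756652-18756752: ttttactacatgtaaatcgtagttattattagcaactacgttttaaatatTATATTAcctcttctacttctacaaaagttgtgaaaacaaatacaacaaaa

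In what follows, a start is an annotated transcription start site, and a promoter peak has its summit within 500 bp of one. All 10 receptor genes had at least 1 peak of the list selected by the irreproducible discovery rate (IDR) procedure, which keeps regions that rank alike in different replicates. The background was high: 51.9% of all protein-coding genes had such a peak by the same rule. Long genes have more room for peaks, and the share was 48.7% for genes whose window, the gene plus 5 kb on each side, was under 20 kb, 70.9% for windows of 20 to 50 kb and 74.1% for windows of 50 kb or more. Inside the gene alone, 9 of the 10 had a peak, and 8 had one whose nearest protein-coding start was their own. The shares of all protein-coding genes under these stricter rules are not given here, so the shares above are not their background. Of the receptor genes, usp and Hr78 have the short windows, Eip78C, Hr3, Hr39 and Hr38 the intermediate ones, and EcR, Eip75B, Hr4 and ftz-f1 the long ones.

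The 10 genes held 66 of the 7096 IDR peaks, in 61 separate intervals, and 256 of the 30000 regions of the list made from the pooled replicates. The IDR list was the top 7096 of the pooled list by signal, and 25.8% of the pooled regions at the receptor genes were selected, against 23.7% of all pooled regions. The replicate lists, of 30000 regions each, had 228, 280 and 236 regions at these genes in replicates 1, 2 and 3 (248 ± 28.0, SD, n = 3). The most came from replicate 2, whose list also had the most regions at the ceiling of the q-value, 10260 against 3476 and 3343 in replicates 1 and 3. Read depth is unknown from these lists, so its part in this order was not tested. Peaks stood at 1.21 per 10 kb of receptor gene window, against 0.534 per 10 kb over the chromosome arms. The arms include stretches without genes, so the 2 densities differ in what they cover. Over the windows of protein-coding genes the density was 0.687 per 10 kb for windows under 20 kb, 0.703 for 20 to 50 kb and 0.456 for 50 kb or more.

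The genes differed widely among themselves in peak number. Hr4, a receptor of the early-late tier, had 16 IDR peaks, and 15 protein-coding genes, Hr4 among them, had as many or more. Eip75B, an early gene, had 14, Hr3 had 9, EcR had 8 and ftz-f1 had 7. The other five had 3 or fewer: 3 at usp, Eip78C and Hr38, 2 at Hr39 and 1 at Hr78. Set against genes of like window length, as many peaks as Hr3 held, or more, were found in 1.85% of genes, as many as Hr4 in 2.78%, as many as Eip75B in 5.56% and as many as usp in 9.11%. As many as Hr39 were found in 47.3% and as many as Hr78 in 48.7% of genes of their window class, so these receptors were ordinary in peak number. The remaining genes lay between, at 19.2% for EcR, 25.0% for ftz-f1, and 30.6% for Eip78C and Hr38. These classes are broad, so window length still differs within them. Ranked by peaks per 10 kb instead, 2.14% of the class was as dense as Hr4 or denser, and 7.20% as usp. The share was 7.58% for Hr3, 13.9% for ftz-f1 and 14.5% for Eip75B, and from 24.6% for EcR to 44.1% for Eip78C among the others.

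**Figure D1:**
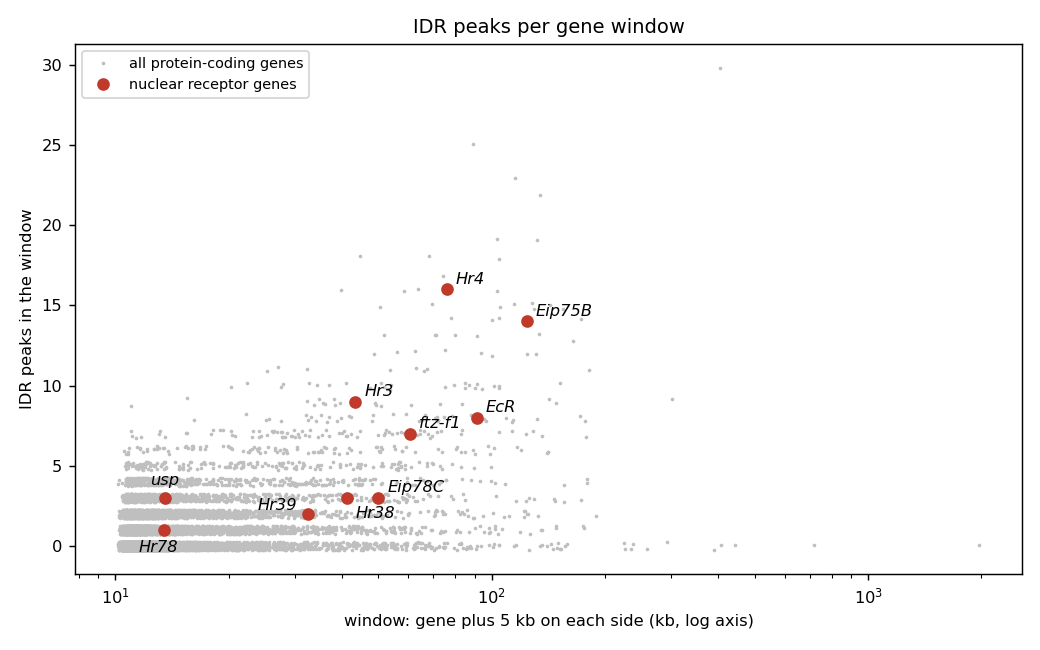
IDR peaks (vertical axis) against the length of the window, the gene plus 5 kb on each side (horizontal log axis, kb), for all protein-coding genes (grey points, moved slightly up or down at random to separate them) and the 10 receptor genes (red). Hr4 with 16 peaks, Eip75B with 14 and Hr3 with 9 lie high among windows of their length, while Hr39 with 2 and Hr78 with 1 lie within the mass of genes.

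The strongest binding at these genes was found at Eip78C, Hr4, Eip75B and Hr3, and these 4 stood above the other 6 genes in every replicate. Signals of different lists are on different scales, so they are given here as levels, the signal divided by the median signal of the 7096 strongest regions of the same list. A level of 1 is thus a typical peak. The strongest peaks of 4 of the 10 genes were among the 710 strongest IDR peaks, with a signal of at least 423.9, against 11.1% of protein-coding genes with such a peak. By window class that background was 9.61% under 20 kb, where 0 of 2 receptor genes had one, 18.3% for 20 to 50 kb, where Eip78C and Hr3 of 4 genes did, and 26.3% for 50 kb or more, where Eip75B and Hr4 of 4 genes did. Counted as peaks, 6 of 66 were among the 710, or 9.09%, close to the share that the cut fixes for all IDR peaks, 710 of 7096. The median signal of the 66 peaks was 145 and that of all IDR peaks was also 145, a ratio of 0.997, and the ratio over replicates was 1.02 ± 0.0618 (SD, n = 3). The 6 highest peaks were thus spread over 4 genes, with 2 each at Eip75B and Hr4, while the medians of the 2 sets lay close together.

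**Figure D2:**
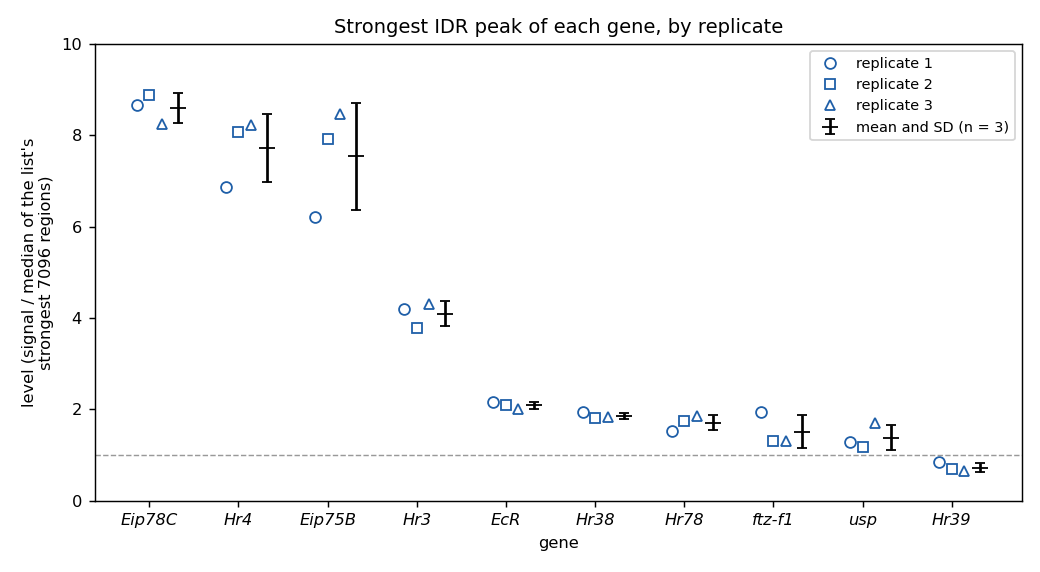
Level of the strongest IDR peak of each gene (vertical axis, signal divided by the median of the strongest 7096 regions of the same list) in replicates 1, 2 and 3 (open symbols), with the mean and SD of the 3 replicates (black). Eip78C, Hr4 and Eip75B lie above 6 in every replicate, Hr3 near 4, and the other 6 genes close to or below 2, with Hr39 below the dashed line at 1.

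EcR encodes the hormone-binding receptor of the pair (FBgn0000546, chr2R:6087873-6169087, minus strand). Its 8 IDR peaks had signals from 80.7 to 319.6 in the pooled list. The strongest, chr2R:6134525-6134801, lay in an intron of EcR-RA, EcR-RD and EcR-RE, 2759 bp upstream of the start shared by EcR-RB and EcR-RC. Its level was 2.17, 2.11 and 2.01 in replicates 1, 2 and 3 (2.09 ± 0.0776, SD, n = 3), one of the tightest sets at these genes. A pair of peaks lay at EcR promoters. The peak 462 bp upstream of the EcR-RB and EcR-RC start, chr2R:6132164-6132603, had levels of 1.17, 0.783 and 0.462 (0.804 ± 0.354, SD, n = 3). Replicate 3 also had a stronger region, 348 bp upstream of that start at a level of 0.754, which was not the matched one. The peak 328 bp upstream of the EcR-RD and EcR-RE start, chr2R:6157237-6157676, had levels of 0.949, 0.662 and 1.03 (0.879 ± 0.192, SD, n = 3). Both promoter peaks were below the intron peak in all 3 replicates, and their ranges overlapped each other. The start of EcR-RA, the outermost, had only a weak pooled region of signal 29.7 and no IDR peak. The peak beyond the 3′ end of EcR lay 200 bp from the start of Ars2 and was matched in replicate 2 alone.

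usp encodes the partner of EcR, the fly counterpart of the vertebrate retinoid X receptor (FBgn0003964, chrX:2038798-2042311, minus strand). It was one of the most compact loci: its 3 IDR peaks lay within 1.08 kb, all within 500 bp of a usp start. The strongest, chrX:2041232-2041671, lay 140 bp upstream of the usp-RA start and had levels of 1.28, 1.17 and 1.70 (1.39 ± 0.279, SD, n = 3). A weaker summit 207 bp away, chrX:2041439-2041878, had levels of 0.337, 0.521 and 0.195 (0.351 ± 0.164, SD, n = 3). The peak 217 bp upstream of the usp-RB start, chrX:2042308-2042747, had levels of 0.619 in replicate 1 and 0.701 in replicate 3, and no summit within 100 bp in replicate 2. The nearest summit of replicate 2 was 113 bp away, at a level of 0.754, so the missing match rests on the matching distance. A start of CG4313 or of Actn also lay within 500 bp of each of these 3 peaks, so the binding cannot be given to usp alone.

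Eip75B, an early gene whose product binds heme, was the longest of the loci (FBgn0000568, chr3L:17950953-18064696, minus strand) and had 14 IDR peaks. Its strongest peak, chr3L:18011683-18012095, ranked 69th among all IDR peaks with a pooled signal of 1130. It lay 12092 bp upstream of the Eip75B-RC start, in the first intron of Eip75B-RB and Eip75B-RG. Levels were 6.22, 7.93 and 8.47 (7.54 ± 1.17, SD, n = 3). The Eip75B-RC promoter carried the highest promoter peak of all 10 genes, chr3L:17999561-17999986, with a summit 61 bp downstream of the start in the 5′ UTR, a pooled signal of 573.7 and levels of 3.12, 4.53 and 3.50 (3.72 ± 0.728, SD, n = 3). This promoter peak was lower than the intron peak in each replicate, with no overlap of their ranges.

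Binding at the other Eip75B promoters was uneven. The peak 458 bp upstream of the Eip75B-RF start, chr3L:18064934-18065373, had levels of 0.860, 1.10 and 1.66 (1.21 ± 0.412, SD, n = 3). The peak 55 bp upstream of the Eip75B-RD start, chr3L:17961649-17962088, had levels of 0.396, 0.633 and 0.457 (0.495 ± 0.123, SD, n = 3). The starts of Eip75B-RA, Eip75B-RE and Eip75B-RG had pooled regions of signal 68.5, 28.2 and 33.5, all below the lowest IDR signal of 79.6. The Eip75B-RB start had no pooled region. Of its 7 starts, 3 therefore had an IDR peak, and only the Eip75B-RC peak was above a level of 2. A further intron peak, chr3L:18009034-18009327, at 9353 bp upstream of the Eip75B-RC start, had levels of 3.45, 2.57 and 2.39.

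Eip78C, a relative of Eip75B, had the strongest peak at the 10 genes in the pooled list and in replicates 1 and 2 (FBgn0004865, chr3L:21226609-21266503, plus strand). The peak, chr3L:21253663-21254095, ranked 54th of 7096 with a pooled signal of 1295. Levels were 8.67, 8.89 and 8.25 (8.60 ± 0.325, SD, n = 3), and in replicate 3 the strongest Eip75B peak was higher, at 8.47. It lay 13556 bp downstream of the Eip78C-RB start, in an intron of all 4 annotated isoforms. The other 2 IDR peaks of the gene lay within 2.36 kb of it and were near a level of 1, so this 1 peak held 82.9% of the signal summed over the gene's IDR peaks. No start of Eip78C had an IDR peak: the Eip78C-RB start had a pooled region of signal 54.0, and the others had no region in the pooled or any replicate list. Its nearest protein-coding start was that of CG43218, 4117 bp away.

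**Figure D3:**
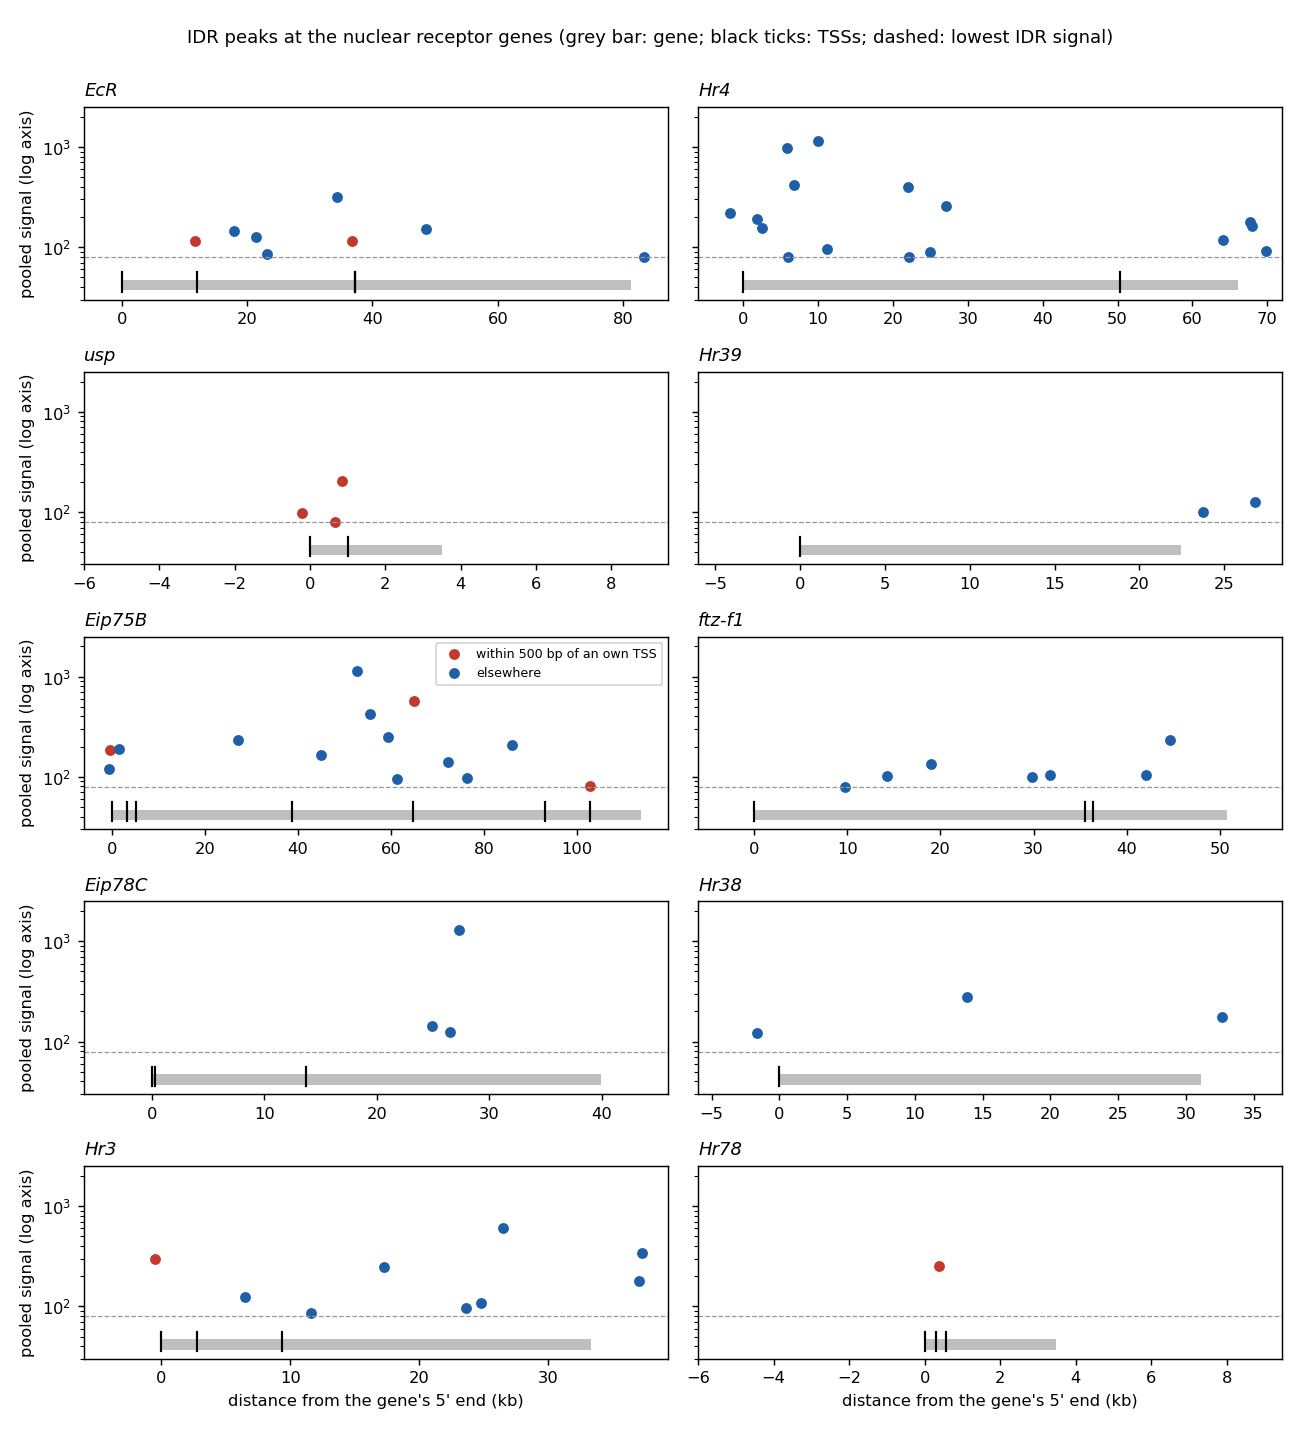
IDR peaks at each of the 10 receptor genes, plotted by distance from the gene's 5′ end (horizontal axis, kb, read in the direction of transcription; scales differ between panels) and pooled signal (vertical log axis). Grey bars are genes, black ticks are starts, red points are peaks within 500 bp of an own start and blue points are other peaks; the strongest points at Eip78C, Hr4 and Eip75B, at 1295, 1155 and 1130, are blue points inside the gene.

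Hr3, the fly counterpart of the vertebrate ROR receptors and an activator of ftz-f1, had 9 IDR peaks (FBgn0000448, chr2R:10203995-10237348, minus strand). The strongest, chr2R:10210653-10211021, lay in an intron of all 6 isoforms, 17129 bp downstream of the start of Hr3-RA, Hr3-RF and Hr3-RH. Levels were 4.20, 3.79 and 4.30 (4.10 ± 0.270, SD, n = 3). The peak 480 bp upstream of the Hr3-RD start, chr2R:10237608-10238047, had levels of 1.47, 2.21 and 2.00 (1.89 ± 0.380, SD, n = 3). It was lower than the intron peak in every replicate, and it lay 160 bp from the start of the neighbouring gene Hdc. The intron peaks lie inside the annotated spans of CG12912 and, but for 1, CG46321 as well. A pair of peaks downstream of Hr3 lay 359 and 559 bp from the start of CG34221. The starts of the other Hr3 isoforms had no IDR peak.

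Hr4, a receptor of the same phase of the cascade, had peaks packed into its 5′ part (FBgn0264562, chrX:1941940-2007956, plus strand). A stretch of 9.37 kb there held 7 of its 16 IDR peaks, the most in any 10 kb at these genes. The strongest, chrX:1951716-1952134, was 9979 bp downstream of the start that 7 of its isoforms share, with levels of 6.86, 8.08 and 8.22 (7.72 ± 0.746, SD, n = 3). The next, chrX:1947546-1947962, at 5815 bp from the same start, had levels of 6.86, 6.30 and 6.21 (6.46 ± 0.355, SD, n = 3). Both were at 6.86 in replicate 1, and the first was higher in replicates 2 and 3. Neither start of Hr4 had an IDR peak, and the main start had only a pooled region of signal 36.6. The 4 Hr4 peaks outside the gene lay at starts of other genes, namely CG3587 and CG3857 upstream, and PIG-K and east downstream.

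ftz-f1, the competence factor of prepupae, had a broad set of weak peaks (FBgn0001078, chr3L:18750607-18801309, minus strand). All 7 IDR peaks lay in introns and none at a start. The strongest, chr3L:18756482-18756921, had levels of 1.94, 1.31 and 1.30 (1.52 ± 0.368, SD, n = 3), so replicate 1 was highest. The other 6 peaks had pooled signals between 79.9 and 134.1. The start of ftz-f1-RC and ftz-f1-RD had a pooled region of signal 58.9, and the other starts had no pooled region. ftz-f1 also had regions that were among the strongest 7096 of a replicate but were not near an IDR peak, 3 in replicate 1, 0 in replicate 2 and 5 in replicate 3, the strongest at a level of 0.772.

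Hr39, a relative of ftz-f1 that binds similar sites, was the only receptor gene with no IDR peak inside it (FBgn0261239, chr2L:21237250-21259675, plus strand). Its 2 peaks lay downstream, and both stood near other transcription units. One was 150 bp from the start of l(2)k14505. The stronger one, chr2L:21263813-21264252, lay at mir-4974 within CG8671 and had levels of 0.843, 0.692 and 0.643 (0.726 ± 0.104, SD, n = 3). The only Hr39 start had no pooled region within 500 bp, with weak replicate regions of signal 11.4 in replicate 1 and 24.9 in replicate 2. The strongest pooled region of Hr39 that was not selected, of signal 49.3, had its summit just beyond that distance, at chr2L:21237812.

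Hr38, the fly counterpart of the vertebrate NR4A receptors and another partner of USP, had 3 IDR peaks (FBgn0014859, chr2L:20683462-20714588, minus strand). The strongest, chr2L:20700628-20700839, lay in an intron 13821 bp downstream of the only start, with levels of 1.93, 1.82 and 1.82 (1.86 ± 0.0650, SD, n = 3), the tightest of the strongest peaks. The peak 1672 bp upstream of the start was the least repeatable of the 57 found in all replicates, with signals of 12.2, 79.1 and 36.1 and levels of 0.275, 1.24 and 0.878, a 4.50-fold range of levels. The third lay 98 bp from the start of Cen, beyond the 3′ end of Hr38. The start of Hr38 had a pooled region of signal 52.9 and no IDR peak.

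Hr78, whose product is an orphan receptor needed for metamorphosis, had a single IDR peak (FBgn0015239, chr3L:21494019-21497494, minus strand). The peak, chr3L:21497061-21497199, fell within 500 bp of all 3 of its starts, 76 bp downstream of the Hr78-RE start and 387 bp downstream of the main one. Levels were 1.53, 1.74 and 1.87 (1.71 ± 0.171, SD, n = 3). It also lay at the start of the antisense gene asRNA:CR43933. Hr78 was the least crowded locus, with 2 regions in the pooled list.

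Ordered by the level of the strongest peak, the genes ran from Eip78C through Hr4, Eip75B, Hr3, EcR, Hr38, Hr78, ftz-f1 and usp to Hr39. Neighbours whose 3 replicate values overlapped were Hr4 and Eip75B, Hr38 and Hr78, Hr78 and ftz-f1, and ftz-f1 and usp, so their order is not resolved. The values did not overlap between Eip78C and Hr4, Eip75B and Hr3, Hr3 and EcR, EcR and Hr38, or usp and Hr39. Beyond neighbours, the values of Eip78C and Eip75B overlapped, with Eip75B higher in replicate 3. Those of Hr38 and ftz-f1 overlapped as well, with ftz-f1 higher in replicate 1, and so did those of Hr78 and usp. The order of these pairs is not resolved either. Each strongest peak was chosen as the highest in the pooled list, which holds the same 3 replicates.

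By the 500 bp rule, promoter binding split the genes. EcR, usp, Eip75B, Hr3 and Hr78 had an IDR peak within 500 bp of an own start, 5 of 10 genes, against 19.8% of protein-coding genes. Hr3 was counted through a pooled summit 480 bp upstream of the Hr3-RD start and 160 bp from that of Hdc. Only replicate 2 had a summit within 500 bp of the Hr3-RD start. The EcR-RB and EcR-RC start had none in replicate 1, while the EcR-RD and EcR-RE start had one in every replicate. By window class the background was 18.1% under 20 kb, where both receptor genes had one, 29.7% for 20 to 50 kb, where 1 of 4 had one, and 31.4% for 50 kb or more, where 2 of 4 had one. Of 29 distinct starts, 11 had an IDR peak, against 18.6% of all starts of protein-coding genes, and 20 had a pooled region, against 43.1%. Hr78 alone gives 3 of the 11 through 1 peak. Eip78C, Hr4, Hr39, Hr38 and ftz-f1 had no IDR peak at any start, and this group includes the genes with the highest and the lowest strongest peaks.

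**Figure D4:**
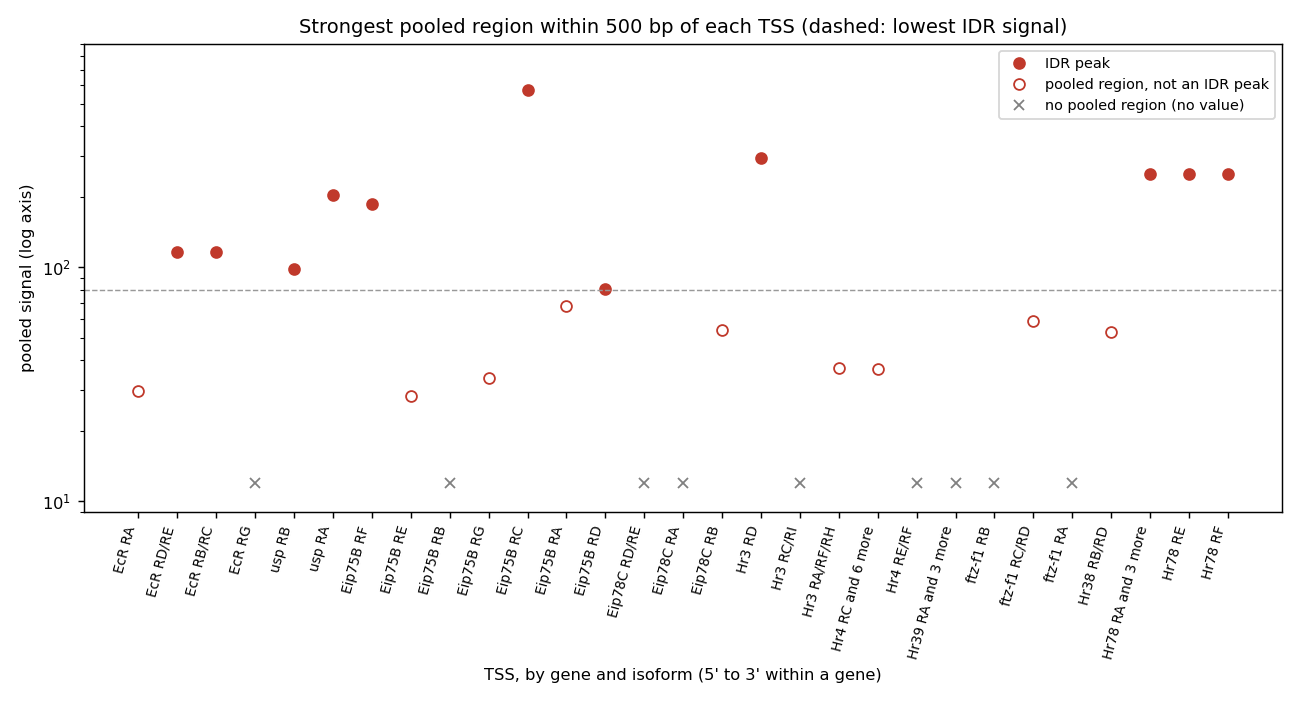
Signal of the strongest pooled region (vertical log axis) within 500 bp of the starts of the 10 genes (horizontal axis, one position per start, named by isoform). Filled points are IDR peaks, open points are pooled regions that were not selected and crosses mark starts without a pooled region, which have no value; the Eip75B-RC start is highest at 573.7.

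Of the 66 peaks, 49 lay in introns of their gene, 9 downstream of it, 6 upstream, 1 in a 5′ UTR and 1 in a 3′ UTR. Of the intron peaks, 30 were in the first intron of at least 1 isoform. For a like comparison with all IDR peaks, introns and starts of any protein-coding gene were counted. By that count 52 of 66 peaks (78.8%, 95% Wilson interval 67.5 to 86.9%) lay in an intron and in no exon, against 53.8% of all IDR peaks. Within 500 bp of a start lay 18 (27.3%, 18.0 to 39.0%), against 34.0%, which is inside the interval, and over 5 kb from every start lay 32 (48.5%, 36.8 to 60.3%), against 28.6%. Most of the receptor genes are long, with a median window of 46.6 kb, and the part of gene length in these shares was not tested. Only 10 peaks, or 15.2%, lay within 500 bp of an own start. Of the 15 peaks outside the genes, 11 lay within 500 bp of a start of another gene. Promoter and other peaks had similar heights, with median pooled signals of 151.3 for the 10 and 144.6 for the other 56. Of the 6 peaks among the 710 strongest, 1 lay within 500 bp of a start of any protein-coding gene (16.7%, 3.01 to 56.4%), against 47.2% of the 710, which is inside the interval.

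Most of these peaks had a match in every replicate, which is a description, because the IDR list was selected on the same 3 replicates. A summit within 100 bp was found in all 3 replicates for 57 of 66 peaks, or 86.4% (95% Wilson interval 76.1 to 92.7%), against 87.5% of all IDR peaks. A further 6 were matched in 2 replicates and 3 in 1 replicate only, and none was without a match. The 3 matched once were the EcR peak near Ars2, an Eip75B intron peak at chr3L:18003193-18003632 and an Hr3 intron peak at chr2R:10225498-10225937. These counts rest on the matching distance: the Eip75B peak had a summit 103 bp away in replicate 3 at a level of 0.805, above its matched level of 0.275 in replicate 1, and the Hr3 peak had one 169 bp away in replicate 1 at 0.655. Over the 57 peaks the highest level was a median of 1.41 times the lowest, and 12 peaks had a range over 2-fold. Spearman's rho of the levels across these 57 peaks came to 0.782 between replicates 1 and 2, to 0.829 between 1 and 3 and to 0.854 between 2 and 3, given as a description across peaks that were selected on the same replicates. Some peaks are close pairs with summits about 200 bp apart, as at the strong Hr4 peak of signal 965.5 and its neighbour of 79.7, which share 1 interval.

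The summits at the receptor genes were on average poorer in G and C than their flanks. Mean GC content within 50 bp of the summit was 34.9% ± 1.21 (SE, n = 66 peaks), against 45.6% ± 1.13 at 300 bp on both sides, a difference of 10.7 percentage points ± 1.86, and 50 of 66 summits were below their flanks. All IDR peaks had 33.3% and 45.1%, a difference of 11.8. The 190 other pooled regions at the receptor genes had no such dip, with 42.9% at the summit and 42.1% in the flanks, while all 22904 other pooled regions had a shallow one, with 40.0% and 42.9%. In the strongest regions of the replicates at these genes the difference was 9.63 ± 1.75 (SD, n = 3). Single peaks departed from the mean: the Hr78 summit had 13.9% GC, the lowest of the 66, the Eip78C summit 24.8% and the strongest Hr4 summit 42.6%.

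**Figure D5:**
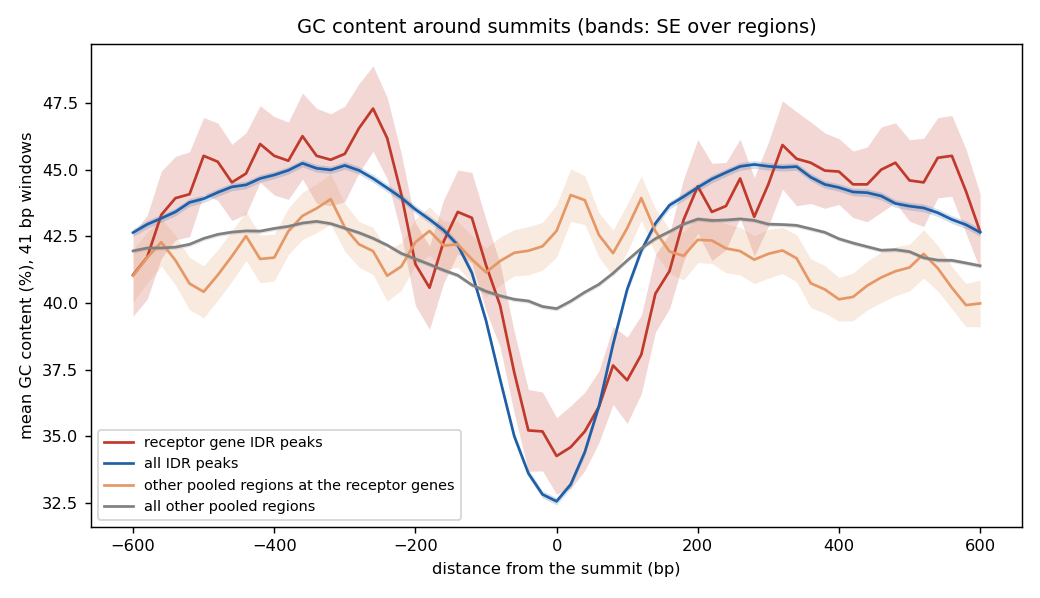
Mean GC content (vertical axis, percent, in windows of 41 bp) by distance from the summit (horizontal axis, bp) for the 66 IDR peaks at the receptor genes, all 7096 IDR peaks, and the pooled regions that were not selected, at the receptor genes and elsewhere; bands are the SE over regions. Both IDR sets dip to about 33 to 35% at the summit, and the unselected regions at the receptor genes do not dip.

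Short words were looked for, on either strand, no farther than 50 bp from each of the 66 summits, as letters and not as proven sites. AGGTCA, the core hexamer of many nuclear receptors, was in 0 of 66, which allows a share of up to 4.55%, and in 2.03% of all IDR peaks. CAAGGTCA, the longer site bound by the ftz-f1 and Hr39 products, and which contains AGGTCA, was in 0 of 66 and in 0.141% of all IDR peaks. TATCGATA, the DNA replication-related element, was also in 0 and in 0.944% of all. TATAAA was in 10 (15.2%, all IDR peaks 22.1%), GAGAG in 9 (13.6%, 10.5%), TAATTA in 7 (10.6%, 9.78%), TGATAA in 6 (9.09%, 9.50%) and AGATAA in 4 (6.06%, 7.85%). TAATATA, a word known from earlier results to lead at summits of these data, was in 5 peaks (7.58%, 7.91%), including the printed Hr38 and ftz-f1 summits, and TCTTAAA in 3 (4.55%, 5.61%). All these shares have intervals that hold the value over all IDR peaks. Words overlap in places, as in the second Hr4 peak, where TAATTA runs into TATAAA, and the strongest Hr4 summit held none of the words.

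Other genes of the hormone response give a setting for these values. Of 11 other nuclear receptors, 9 had an IDR peak, with 15 peaks in all, 0.615 per 10 kb. knrl, a gap gene relative, had the strongest at a signal of 505.3 and Hnf4, a regulator of lipid metabolism, the next at 429.3, while svp and tll had none. All 5 receptor cofactors had one, led by Smr, a corepressor of EcR, at 631.5 and by tai, an EcR coactivator, at 470.5. Of 17 ecdysone response genes outside the receptor family, 14 had one. Sox14, an ecdysone-induced factor, had a signal of 1442 and levels of 8.61, 9.23 and 11.4 at a peak 242 bp upstream of its start, and ImpL2, which encodes a secreted insulin antagonist, had a signal of 874.0. Cyp18a1, which encodes an ecdysone-inactivating enzyme, and ImpL1 had none. Taken as a set, the receptor genes were denser, at 1.21 per 10 kb, than the cofactors at 1.15. The response genes had 0.842 and the other receptors 0.615. Single receptor genes ran from 0.601 at Eip78C to 2.22 at usp. Eip78C, Hr39, Hr38 and Hr78 lay below the value of the response genes. No test was made of these differences.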

How the data were processed

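The authors deposited narrowPeak region lists on dm6, per the labels and the accompanying notes: 1 list per replicate, 1 from the pooled replicates, made with a control library, and an IDR-thresholded list. The aligner, the caller and the IDR cutoff were not given in the sources used here. Each deposited signal is the height the authors' caller gave it, on the scale of its own list. The deposited −log10 q-values reach a ceiling (7675 of 30000 pooled regions) and were not used for ranking. Read depth is unknown, so intervals cover the counting of regions only.

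From these lists, summits were placed with Ensembl release 115 (starts within 500 bp called promoters) and sequence with the RefSeq genome of the same assembly, all counted from 1. A match in a replicate was the nearest summit within 100 bp. Python 3.11.15, numpy 2.4.6, pandas 2.3.3 and matplotlib 3.10.9 were used. The window count and word search were tested on simulated data. The genes, lists and words were chosen with earlier results of these data known, and no statistical test was made. The text names all 10 genes, gives in full the strongest IDR peak of each and each IDR peak at an own start, and for each other list the 2 genes with the strongest peak and up to 2 without one. Peaks outside this rule are named where a count or a comparison turns on them. Eip71CD and Eip55E were matched by synonym as MsrA and Cth. The dm3 lists were not used.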

Additional observations from a re-analysis of the deposited data

How the results depend on the processing

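Of the recomputed main values, 41 stayed within the bounds and 11 moved. The bounds were the spread or interval of the value, or 1.5 times for the counts. With only IDR peaks of above-median signal, 33 peaks remained at the 10 genes, 5 of them at an own start, the share found in all replicates was 93.9% and the GC difference 13.7 points. Counting only peaks whose nearest protein-coding start belongs to the gene left 43 peaks in 8 of the 10 genes, and counting inside the gene alone left 51 peaks in 9. Neither count has a share over all protein-coding genes beside it. The share found in all replicates was 97.0% with summits within 200 bp and 97.0% with an overlap of 1 bp, and 63.6% when only the strongest regions of each replicate counted. Over all IDR peaks it was 98.3% with an overlap of 1 bp and 62.4% with only the strongest regions, close to the receptor genes. The 200 bp share has no such value over all IDR peaks here. A promoter window of 250 bp held 5 peaks, and none of them was at EcR or Hr3. With windows of 100 bp on each side of the summit the GC difference was 8.68 points. With signal scaled by the median of the whole list, the median level of the strongest peaks was 7.11 in place of 1.98, and the order of the genes was the same. Leaving out each replicate in turn covered the numbers of genes, peaks and promoter peaks, the signal ratio, the replicate share and the levels. It moved none of them beyond those bounds, and it was not run for the GC difference. The IDR list and the choice of each strongest peak still came from all 3 replicates. These runs therefore cannot show what lists made without a replicate would hold. No paired analysis was possible because only 1 group exists. Depth is unknown, so a start without a region shows only that none was listed.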
